A study of Homo sapiens with 6 samples.

Results

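The genes described here are 10 genes for the pumps, channels, exchanger and sensor that move calcium between the cytosol, the endoplasmic reticulum and the outside of the cell. They were taken by symbol from a list of members and make up 10 of the 58299 genes in the count table: ATP2A2, ATP2B1, ATP2B4, RYR1, RYR2, ITPR1, ITPR2, ITPR3, SLC8A1 and STIM1. All 10 were found. RNA was measured in AC16 cells after 48 h with 100 nM doxorubicin (3 libraries) or after 48 h with the vehicle, 0.1% DMSO (3 libraries). AC16 is a human line made by fusing adult ventricular heart cells with transformed fibroblasts, so it is only in part of cardiomyocyte origin, and doxorubicin is an anthracycline cancer drug that poisons type II topoisomerases and is toxic to the heart. Neither group carries an engineered allele according to the labels. The series title places the comparison in a study of doxorubicin toxicity in these cells and of the antioxidant regulator NRF2.

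Resting cells keep cytosolic calcium far below the levels in the endoplasmic reticulum and outside the cell. SERCA pumps return calcium to the reticulum, while plasma membrane pumps and the sodium-calcium exchanger carry it out of the cell. Calcium leaves the reticulum through IP3 receptors, which open on the second messenger inositol trisphosphate, and through ryanodine receptors, which in heart muscle open during each beat. STIM proteins sense the filling of the reticulum and open ORAI channels in the plasma membrane when it runs low. In beating cardiomyocytes SERCA2, RyR2 and the exchanger NCX1 carry most of the calcium of each contraction.

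Libraries held 17252862 to 19571731 counts, and values below are CPM, counts scaled to the library total and adjusted by TMM, given as mean ± SD with n = 3 libraries a group. Nothing in the labels states that replicate libraries were grown as separate cultures, and each p-value therefore measures the spread among these libraries alone, which may be technical. In bulk RNA, fewer cells of a type and less RNA per cell cannot be told apart. Defining cardiomyocyte genes were close to absent in both groups: MYH6 had 3 counts over the doxorubicin libraries and 0 over the DMSO libraries, MYL2 had 2 and 0, and TNNT2 had 3 and 4. Some of these low genes had more counts after doxorubicin, as RYR1 and RYR2 did: TNNI3 and ACTN2 each had 16 counts after doxorubicin and 1 in DMSO, and MYBPC3 had 7 and 0. NPPA had 5 counts after doxorubicin and 14 in DMSO. Of 12 cardiomyocyte markers only GATA4 and TTN passed the filter on low counts, and TTN was the 1 called, higher after doxorubicin. Their summed level was 30.2 to 34.3 CPM after doxorubicin and 29.6 to 30.5 CPM in DMSO. Fibroblast markers were abundant, with a summed level of 5472 to 8130 CPM after doxorubicin and 15770 to 18045 CPM in DMSO. Of these 9 markers 7 fell. Over all tested genes, 32.7% were called higher and 32.0% lower. The smooth muscle list of 6 genes, 3 higher and 1 lower, summed to 1045 to 1114 CPM after doxorubicin and 590.5 to 833 CPM in DMSO. The skeletal muscle list summed to 19.5 to 21.6 and 34.2 to 37.7 CPM, with MYOG and MYF5 at 0 counts in every library. The endothelial list summed to 9.43 to 10.8 and 14.5 to 16.6 CPM, the neuronal list to 8.30 to 10.4 and 11.6 to 13.6 CPM, and the immune list to 1.99 to 2.57 and 0.782 to 1.71 CPM, in each case doxorubicin first and DMSO second. Single genes carried most of several sums. The highest value in any library was 11007 CPM for COL1A1 of the fibroblast list and 831 CPM for SMTN of the smooth muscle list. It was 37.3 CPM for TNNT1 of the skeletal muscle list and 24.7 CPM for GATA4 of the cardiomyocyte list. For the endothelial list it was 15.4 CPM for TEK, and for the immune list 2.29 CPM for PTPRC. The part of these shifts in the results below was not tested.

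After doxorubicin, RNA for the SERCA2 pump, all 3 IP3 receptors and the store sensor STIM1 was higher, and RNA for the plasma membrane pumps ATP2B1 and ATP2B4 and the exchanger SLC8A1 was lower. Of the 10 genes, 8 passed the filter on low counts, and all 8 were called (edgeR, quasi-likelihood F test, adjusted p under 0.05), against 64.7% of all 15358 tested genes. The 5 that rose compare with 32.7% of tested genes higher and the 3 that fell with 32.0% lower. The changes were moderate: they ranged from 2.24-fold lower for SLC8A1 to 2.15-fold higher for ITPR2, and these 2 genes were the only ones of the 8 that changed at least 2-fold, as did 20.5% of all tested genes. For all 8 genes the 3 doxorubicin libraries did not overlap the 3 DMSO libraries, which was also so for 69.1% of tested genes. RYR1 and RYR2 were too low to pass the filter and are described by their counts.

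**Figure D1:**
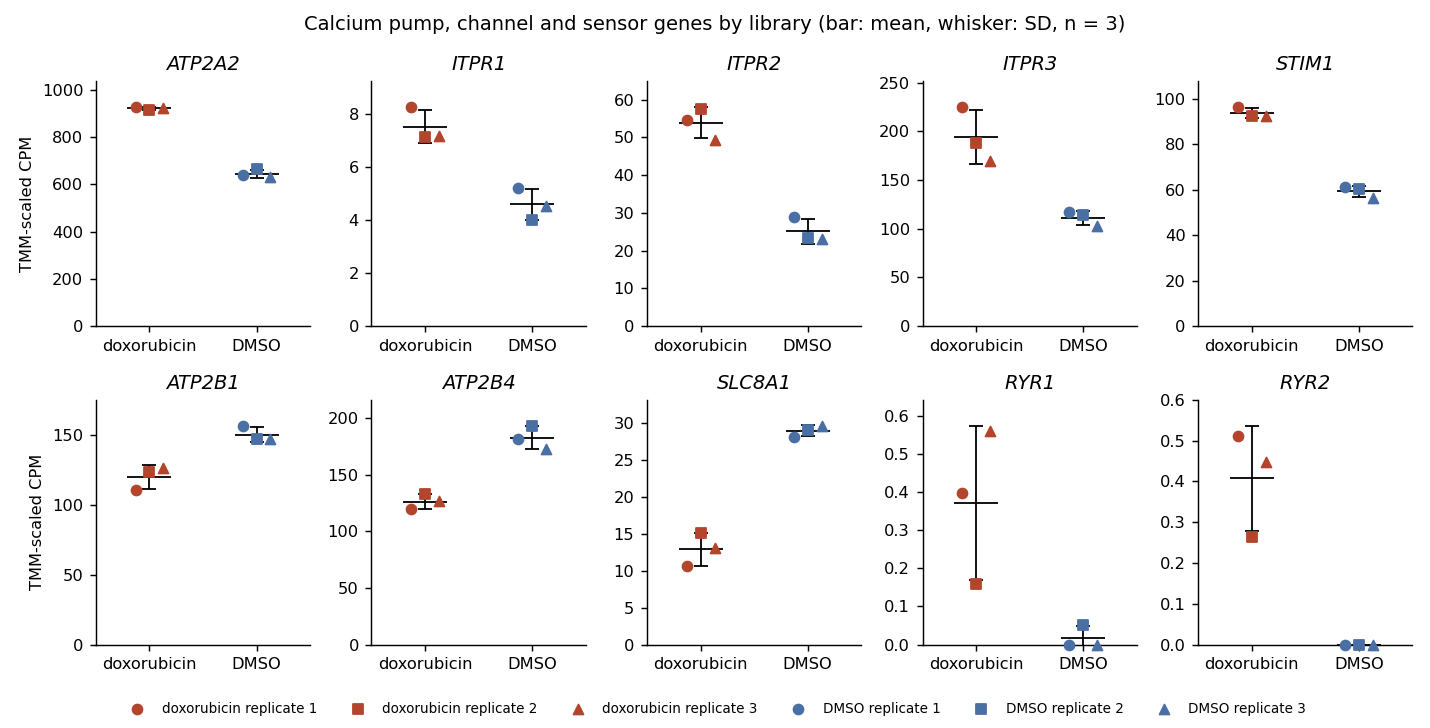
Level of each of the 10 genes in each library, in TMM-scaled CPM on a separate linear scale for each gene, with doxorubicin left of DMSO. Points are libraries, bars are group means and whiskers are SD (n = 3). In every panel the doxorubicin points lie wholly above or wholly below the DMSO points.

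**Figure D2:**
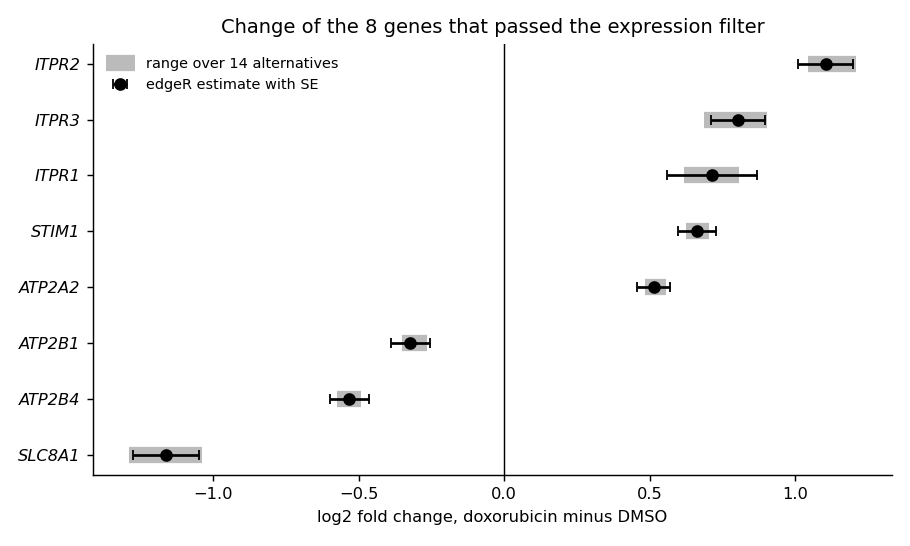
Log2 fold change of doxorubicin over DMSO for the 8 tested genes, with whiskers for the approximate standard error of the edgeR estimate and grey bands for the range over 14 alternative settings. ITPR2 stands highest at 1.10 and SLC8A1 lowest at -1.16.

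The DNA just upstream of 4 of the genes is shown because they stand for a gene that fell, genes that rose and a gene nearly silent in DMSO, and each window lies next to the start of a principal transcript. Each sequence is the 250 bases before an annotated transcript start, read 5′ to 3′ on the gene's strand from RefSeq on GRCh38.p14. Capitals mark matches to GGGCGG on either strand (CCGCCC is the same motif on the other strand), CCAAT or TATAAA.
STIM1 (chr11:3855453-3855702, plus strand): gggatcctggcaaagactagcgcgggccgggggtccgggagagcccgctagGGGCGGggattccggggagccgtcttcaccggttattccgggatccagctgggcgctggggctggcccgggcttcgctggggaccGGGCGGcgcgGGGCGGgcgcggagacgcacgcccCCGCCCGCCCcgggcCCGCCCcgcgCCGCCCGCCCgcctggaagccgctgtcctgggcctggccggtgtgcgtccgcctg
ITPR1 (chr3:4493098-4493347, plus strand): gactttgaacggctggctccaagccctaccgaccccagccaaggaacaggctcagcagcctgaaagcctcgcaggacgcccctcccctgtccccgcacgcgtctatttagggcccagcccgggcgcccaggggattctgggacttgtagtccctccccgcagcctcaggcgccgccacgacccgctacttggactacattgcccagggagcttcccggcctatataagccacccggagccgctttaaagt
ATP2B1 (chr12:89708839-89709088, minus strand): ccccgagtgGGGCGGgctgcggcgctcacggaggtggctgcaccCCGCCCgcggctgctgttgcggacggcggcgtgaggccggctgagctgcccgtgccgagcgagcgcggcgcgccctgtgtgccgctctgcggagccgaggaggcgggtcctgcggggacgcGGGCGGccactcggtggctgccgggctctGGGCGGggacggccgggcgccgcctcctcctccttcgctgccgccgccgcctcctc
RYR2 (chr1:237041934-237042183, plus strand): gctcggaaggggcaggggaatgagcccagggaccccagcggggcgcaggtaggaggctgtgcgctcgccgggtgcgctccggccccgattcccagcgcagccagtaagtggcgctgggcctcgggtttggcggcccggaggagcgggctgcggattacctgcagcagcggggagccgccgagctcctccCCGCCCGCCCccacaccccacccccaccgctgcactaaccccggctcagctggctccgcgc
STIM1, which rose, had 79.6% G and C in this window and 8 matches to GGGCGG, some of them overlapping. ATP2B1, which fell, had 80.8% G and C and 4 matches. RYR2, nearly silent in DMSO, had 75.2% G and C and 2 overlapping matches. ITPR1, which rose, had 64.8% G and C and no exact match to any of the 3 motifs. Only exact strings were searched, so a variant such as the tatataag near the end of the ITPR1 window was not counted. RefSeq windows were found for 9 of the 10 genes, 16 windows in all, some of which overlap. Base composition differed as much between windows of 1 gene as between genes: G and C made up 32.0% to 83.2% in the 3 windows of SLC8A1, which fell, and 56.0% to 79.6% in the 4 windows of STIM1. At least 1 window held GGGCGG in 8 of the 9 genes. Counted by window, GGGCGG was in 11 of these 16 windows and in 42.6% of all 35116 RefSeq windows of the same length before annotated transcript starts. CCAAT was in 3 and in 32.0%, and TATAAA was in 1 and in 10.7%. The E-box CACGTG (6.34% of all windows), the AP-1 motif TGANTCA (6.57%), the endoplasmic reticulum stress element (0.074%) and the p53 half-site (5.57%) were in 0 of the 16, all searched on both strands. The stress element contains the CCAAT motif, so those searches overlap.

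ATP2A2 (ENSG00000174437, chr12:110280756-110351093, GRCh38) encodes SERCA2, the pump that refills the reticulum in heart and most other cells. It had 926, 916 and 921 CPM in the doxorubicin libraries and 640.3, 664 and 632 CPM in the DMSO libraries. Every doxorubicin library was above every DMSO library, and the doxorubicin values spread over only a narrow range. ATP2A2 rose 1.43-fold to 921 ± 4.93 CPM after doxorubicin, against 645 ± 16.6 CPM in DMSO (log2 fold change 0.51 ± 0.058 SE, edgeR adjusted p = 8.95e-07). It was already among the most abundant RNAs: its level was at or above that of 96.2% of tested genes after doxorubicin and 94.0% in DMSO. The other SERCA genes were far lower per kilobase of exon and neither was called. ATP2A1, the fast skeletal muscle form, averaged 3.43 ± 0.289 CPM after doxorubicin and 2.93 ± 0.0778 CPM in DMSO (adjusted p = 0.302, edgeR), and ATP2A3 averaged 1.49 ± 0.165 and 1.41 ± 0.281 CPM (adjusted p = 0.817). Per kilobase, ATP2A2 was at 90.1 ± 7.86 times ATP2A1 after doxorubicin and at 73.5 ± 0.0815 times ATP2A1 in DMSO, and at 312 ± 32.4 and 236 ± 40.0 times ATP2A3.

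The 3 IP3 receptor genes encode the channels that release calcium from the reticulum when inositol trisphosphate binds, and all 3 rose. ITPR3 (ENSG00000096433, chr6:33620365-33696574) had 225, 188 and 170 CPM in the doxorubicin libraries and 117, 114 and 103 CPM in the DMSO libraries. The groups did not overlap, and the first doxorubicin library was the highest. ITPR3 rose 1.74-fold to 194 ± 27.9 CPM after doxorubicin, against 111 ± 7.17 CPM in DMSO (log2 fold change 0.80 ± 0.092 SE, edgeR adjusted p = 4.85e-06). Without the first doxorubicin library its log2 fold change was 0.68. Exons of other genes cover 10.4% of its exon bases, chiefly those of UQCC2 on the opposite strand, and the libraries carry no strand information. UQCC2 moved the other way, with 33.7 ± 3.60 CPM after doxorubicin and 42.8 ± 3.03 CPM in DMSO (adjusted p = 0.00274, edgeR).

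ITPR2 (ENSG00000123104, chr12:26336515-26833198), the IP3 receptor of highest affinity for its messenger and the main form in ventricular heart cells, had the largest increase of the 8. Its levels were 54.7, 57.5 and 49.4 CPM in the doxorubicin libraries and 28.8, 23.3 and 23.1 CPM in the DMSO libraries. The lowest doxorubicin library was well above the highest DMSO library. ITPR2 rose 2.15-fold to 53.9 ± 4.12 CPM after doxorubicin, against 25.1 ± 3.25 CPM in DMSO (log2 fold change 1.10 ± 0.095 SE, edgeR adjusted p = 3.77e-08). Among all tested genes, 12.9% had a log2 fold change at least as high. ITPR1 (ENSG00000150995, chr3:4493348-4847840), the form that predominates in neurons, was low, with 8.24, 7.12 and 7.16 CPM in the doxorubicin libraries and 5.20, 4.01 and 4.53 CPM in the DMSO libraries. Its groups did not overlap either. ITPR1 rose 1.64-fold to 7.51 ± 0.633 CPM after doxorubicin, against 4.58 ± 0.595 CPM in DMSO (log2 fold change 0.71 ± 0.155 SE, edgeR adjusted p = 0.000733).

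Summed over the 3 receptors, the level per kilobase of exon (RPKM) was 24.5 ± 3.04 after doxorubicin and 13.6 ± 0.940 in DMSO, a ratio of 1.80. Each receptor's share of this sum differed by at most 2.94 percentage points between the group means. ITPR3 made up 80.2% ± 1.73 of the sum after doxorubicin and 82.95% ± 1.39 in DMSO (exact two-sided permutation test, p = 0.2). ITPR2 made up 17.4% ± 1.68 and 14.4% ± 1.13 (exact p = 0.2), and ITPR1 2.39% ± 0.153 and 2.61% ± 0.294 (exact p = 0.4), again with doxorubicin before DMSO. With 3 libraries against 3, this test cannot give a p below 0.1, so it cannot show whether the shares differed.

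STIM1 (ENSG00000167323, chr11:3854527-4093210) encodes the sensor in the reticulum membrane that opens ORAI channels when the store is low. It had 96.2, 92.2 and 92.4 CPM in the doxorubicin libraries and 61.0, 60.1 and 56.4 CPM in the DMSO libraries. Both groups were tight and did not overlap. STIM1 rose 1.58-fold to 93.6 ± 2.23 CPM after doxorubicin, against 59.2 ± 2.43 CPM in DMSO (log2 fold change 0.66 ± 0.065 SE, edgeR adjusted p = 1.75e-07). Exons of other genes cover 4.01% of its exon bases, with the largest overlap in STIM1-AS1, which had 66 counts in all 6 libraries.

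Its partners in store-operated entry moved in both directions. Of 17 listed genes, 16 were tested, 5 rose and 7 fell. These were 31.25% and 43.75% of the 16, against 32.7% higher and 32.0% lower among all tested genes. The median log2 fold change of the 16 was -0.31, against -0.0013 over all tested genes. ORAI3, a pore subunit, rose 7.64-fold to 35.9 ± 4.15 CPM after doxorubicin, against 4.70 ± 0.787 CPM in DMSO (edgeR adjusted p = 1.12e-11). Other genes share 52.9% of its exon bases, chiefly 1 on the same strand that had 5 counts. ORAI1, the main pore subunit in most cells, rose 1.58-fold, with 86.8 ± 3.48 CPM after doxorubicin and 54.8 ± 3.11 CPM in DMSO. SEPTIN4 rose 13.1-fold, with 6.49 ± 1.17 CPM after doxorubicin and 0.492 ± 0.261 CPM in DMSO, and CRACR2B, a regulator of ORAI channels, and TMCO1, a reticulum protein described as a calcium leak channel, also rose. SEPTIN4 had 27 counts over the DMSO libraries and passed the filter mainly through the doxorubicin libraries, which favoured an increase. Among those that fell, STIM2 and ORAI2 are named because they are the close relatives of genes that rose, a choice made after their values were seen. STIM2, the sensor that responds to smaller losses from the store, fell 1.91-fold, with 29.6 ± 0.9501 CPM after doxorubicin and 56.5 ± 2.77 CPM in DMSO (edgeR adjusted p = 1.63e-08). ORAI2 also fell, with 70.1 ± 2.11 and 105 ± 4.49 CPM in the same order. Per kilobase, STIM1 stood at 3.06 ± 0.0700 times STIM2 after doxorubicin and at 1.02 ± 0.0803 times STIM2 in DMSO, and ORAI3 at 0.354 ± 0.0293 and 0.0740 ± 0.0164 times ORAI1. Both ratios were higher in every doxorubicin library than in any DMSO library. STIM1 rose and STIM2 fell without overlap of the groups, so their ratio had to separate. The ratio of ORAI3 to ORAI1 likewise restates the 2 changes given above, and neither ratio adds support to them.

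RNA of RYR1 and RYR2 was close to the detection limit in both groups. RYR2 (ENSG00000198626, chr1:237042205-237833988), the release channel of heart muscle, had 9, 5 and 8 counts in the doxorubicin libraries and 0, 0 and 0 in the DMSO libraries. The 22 counts correspond to 0.409 CPM of the total, with an exact 95% counting interval of 0.256 to 0.620, and 0 counts over the DMSO group allows up to 0.0535 CPM (3 counts). The level of RYR2 estimated from the doxorubicin counts was 7.65 times this floor over the DMSO group. The exact 95% counting interval of the ratio, which also takes in the error of the doxorubicin counts, begins at 5.71. RYR1 (ENSG00000196218, chr19:38433699-38587564), the release channel of skeletal muscle, had 7, 3 and 10 counts in the doxorubicin libraries and 0, 1 and 0 in the DMSO libraries. Its ratio was 20.9 with a 95% counting interval of 3.34 to 865. Neither was tested after the filter, but with no filter on low counts edgeR gave adjusted p = 3.68e-05 for RYR2 and 0.00102 for RYR1, and DESeq2 gave 0.00183 and 0.0179. In those fits 6100 of 34828 genes were called higher with no filter and 5043 of 22454 with DESeq2. The median log2 fold change of all genes there was 0.37 with no filter and 0.40 with DESeq2, so increases were common among the added genes with few counts. With limits set after the fact at the counts of RYR1 itself, 34981 genes had at most 1 count over the DMSO libraries. Of these, 268 (0.766%) had at least 20 counts after doxorubicin, but only 10469 had any count after doxorubicin. The percentage thus rests mostly on genes not detected after doxorubicin and does not show how rare such a rise was among detected genes. RYR3, the third ryanodine receptor gene, passed the filter and was not called, with 3.41 ± 0.466 CPM after doxorubicin and 3.74 ± 0.584 CPM in DMSO (adjusted p = 0.578, edgeR).

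RYR3 and the proteins that sit with ryanodine receptors were listed as 14 genes, of which 6 were tested (RYR3 among them). Of the 6, 2 rose (33.3%) and 3 fell (50%), against 32.7% and 32.0% of all tested genes. The median log2 fold change of the list was -0.31. FKBP1A, an immunophilin that binds RyR1 and IP3 receptors and has many other partners, rose 1.41-fold, with 436 ± 9.63 CPM after doxorubicin and 309.5 ± 2.13 CPM in DMSO. Exons of other genes cover 16.8% of its exon bases, mostly those of SDCBP2-AS1, with 455 counts against 40840. SRI, the calcium-binding protein sorcin, rose as well. ASPH, whose transcripts encode junctin and junctate as well as a hydroxylase, fell 1.84-fold, with 359.6 ± 36.1 CPM after doxorubicin and 662 ± 24.8 CPM in DMSO, and FKBP1B and the junction protein gene JPH2 fell. FKBP1B had 24 counts after doxorubicin and 55 in DMSO and passed the filter mainly through the DMSO libraries, which favoured a decrease. Without the first doxorubicin library 1 gene of this list was called lower.

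The 3 genes of the 10 that remove calcium across the plasma membrane, ATP2B4, ATP2B1 and SLC8A1, were lower. ATP2B4 (ENSG00000058668, chr1:203626561-203744081) encodes PMCA4, a plasma membrane calcium pump found in most tissues. It had 119, 133 and 127 CPM in the doxorubicin libraries and 181.5, 193 and 173 CPM in the DMSO libraries. The highest doxorubicin library was well below the lowest DMSO library. ATP2B4 fell 1.45-fold to 126 ± 6.63 CPM after doxorubicin, against 183 ± 10.2 CPM in DMSO (log2 fold change -0.53 ± 0.066 SE, edgeR adjusted p = 2.61e-06). ATP2B1 (ENSG00000070961, chr12:89588049-89709300) encodes PMCA1, the most widely expressed form, and had 110.3, 124 and 126 CPM in the doxorubicin libraries and 157, 147 and 147 CPM in the DMSO libraries. Its groups did not overlap, and the first doxorubicin library was the lowest. ATP2B1 fell 1.25-fold to 120.1 ± 8.55 CPM after doxorubicin, against 150.2 ± 5.46 CPM in DMSO (log2 fold change -0.32 ± 0.067 SE, edgeR adjusted p = 0.000462). The summed level of the pair per kilobase was 25.6 ± 1.51 RPKM after doxorubicin and 34.6 ± 1.14 RPKM in DMSO, a ratio of 0.741. ATP2B1 made up 49.3% ± 1.03 of that sum after doxorubicin and 45.7% ± 1.69 in DMSO (exact two-sided permutation test, p = 0.1, the smallest this design allows).

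SLC8A1 (ENSG00000183023, chr2:40097270-40611053) encodes NCX1, which exports a calcium ion in exchange for sodium ions and is the main exporter in heart muscle. It had 10.6, 15.1 and 13.1 CPM in the doxorubicin libraries and 28.2, 29.1 and 29.7 CPM in the DMSO libraries. The DMSO values lay close together, and the first doxorubicin library was the lowest of the 6. SLC8A1 fell 2.24-fold to 12.9 ± 2.24 CPM after doxorubicin, against 28.98 ± 0.755 CPM in DMSO (log2 fold change -1.16 ± 0.112 SE, edgeR adjusted p = 1.51e-07). Among all tested genes, 4.29% had a log2 fold change at least as low. Without the first doxorubicin library its log2 fold change was -1.04. Exons of other genes cover 9.31% of its exon bases, with the largest overlap in SLC8A1-AS1. That antisense gene had 56 counts in all and was called higher (log2 fold change 1.45, edgeR adjusted p = 0.00626). It had 41 counts after doxorubicin and 15 in DMSO. It passed the filter through the doxorubicin libraries alone, which favoured an increase.

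Of 8 other listed sodium-calcium exchangers, only SLC24A1 and SLC8B1 were tested. SLC24A1, a potassium-dependent exchanger, fell 1.61-fold, with 8.87 ± 0.414 CPM after doxorubicin and 14.3 ± 0.642 CPM in DMSO. SLC8B1, the exchanger of the mitochondrial inner membrane, averaged 22.4 ± 2.90 CPM after doxorubicin and 19.1 ± 1.86 CPM in DMSO and was not called (adjusted p = 0.0704, edgeR). In this fit 0 of the list were called higher by edgeR and 1 had an unadjusted p under 0.05 in that direction. With library totals only, or without DMSO replicate 1, 1 of the 2 was called higher, and 4 of the list were with no filter or with DESeq2, where genes with few counts were also tested. In the list of other pumps and pump regulators, 8 of 13 genes were tested, 2 rose and 2 fell. Each is 25% of the 8, against 32.7% higher and 32.0% lower among all tested genes. BSG and NPTN encode the single-span partner proteins of the plasma membrane pumps and moved apart. BSG rose 1.68-fold, with 1148 ± 68.5 CPM after doxorubicin and 684 ± 23.9 CPM in DMSO, and NPTN fell 1.74-fold, with 98.8 ± 9.93 and 172 ± 8.11 CPM (edgeR adjusted p = 3.75e-08 and 1.02e-07). ATP2C1, a pump of the Golgi, fell 1.29-fold, and ATP2B2, a plasma membrane pump best known in neurons, had 78 counts after doxorubicin and 2 in DMSO, a ratio of 40.7 (95% counting interval 10.9 to 342). ATP2B2 passed the filter through the doxorubicin libraries alone, which favoured an increase.

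Levels of the 10 genes were compared with each other per kilobase of exon. After doxorubicin the order was ATP2A2 (67.0 ± 0.359 RPKM), ITPR3 (19.7 ± 2.83), STIM1 (13.1 ± 0.312), ATP2B4 (12.99 ± 0.682), ATP2B1 (12.6 ± 0.901), ITPR2 (4.23 ± 0.323), SLC8A1 (0.590 ± 0.102), ITPR1 (0.582 ± 0.0491), RYR1 (0.0233 ± 0.0126) and RYR2 (0.0229 ± 0.00723). In that order the library ranges of STIM1 and ATP2B4, of ATP2B4 and ATP2B1, of SLC8A1 and ITPR1, and of RYR1 and RYR2 overlapped, so these neighbours did not differ beyond their spread. In DMSO the order was ATP2A2 (47.0 ± 1.21 RPKM), ATP2B4 (18.8 ± 1.04), ATP2B1 (15.8 ± 0.575), ITPR3 (11.3 ± 0.726), STIM1 (8.30 ± 0.341), ITPR2 (1.97 ± 0.255), SLC8A1 (1.32 ± 0.0345) and ITPR1 (0.355 ± 0.0462), with the ryanodine receptors at or near 0. There only RYR1 and RYR2 overlapped. ITPR3 and STIM1 stood above both plasma membrane pumps after doxorubicin by mean level, and below both in DMSO. After doxorubicin the library range of STIM1 overlapped those of both pumps, so only ITPR3 lay clear of them. The SERCA2 gene stood at 5.17 ± 0.301 times ATP2B4 after doxorubicin and at 2.50 ± 0.0767 times ATP2B4 in DMSO, and at 5.32 ± 0.417 and 2.97 ± 0.147 times ATP2B1. ATP2B1 stood at 21.7 ± 2.59 times SLC8A1 after doxorubicin and at 12.0 ± 0.744 times in DMSO. Exon length was the sum over all annotated exons of a gene, so a level is too low where most transcripts use few of them.

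**Figure D3:**
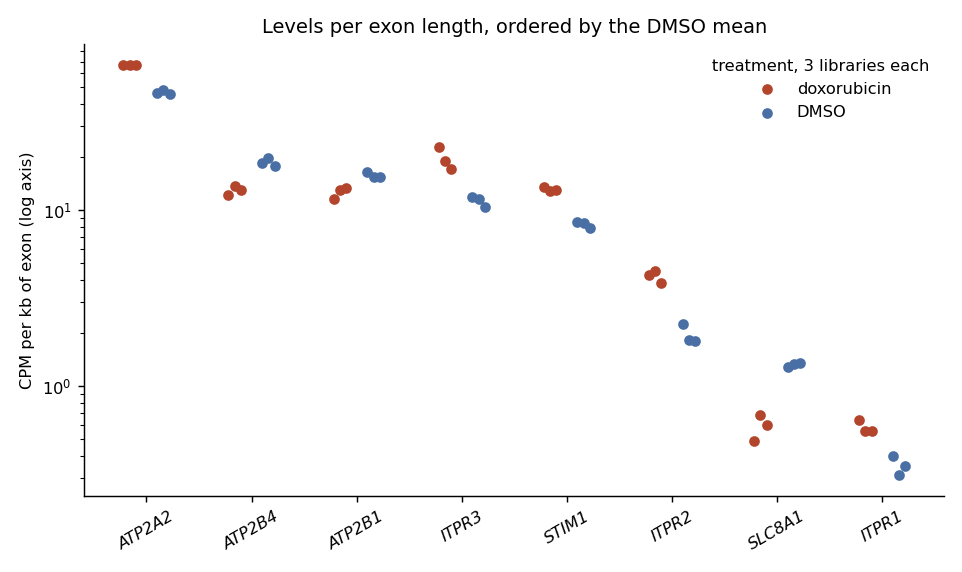
Level per kilobase of exon (RPKM, log axis) of the 8 tested genes in order of their DMSO mean, doxorubicin left of DMSO, with points for libraries. ATP2A2 is highest in both groups, with means of 67.0 RPKM after doxorubicin and 47.0 RPKM in DMSO. ITPR3 and STIM1 pass the plasma membrane pumps in the doxorubicin means, but the doxorubicin libraries of STIM1 overlap those of both pumps.

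The wider calcium machinery was read from 9 lists holding 129 other genes, 99 of them tested. Of these, 30 rose and 49 fell (median log2 fold change -0.25), against 32.7% higher and 32.0% lower among all tested genes. Genes with few counts in 1 group passed the filter mainly through the other, which favoured 1 direction for them. In the list for production of inositol trisphosphate and regulation of its receptor, 12 of 18 tested genes rose and 5 fell, with a median of 0.28. ITPKC, a kinase that converts inositol trisphosphate to a form that does not open the receptor, rose 5.56-fold, with 77.2 ± 12.1 CPM after doxorubicin and 13.9 ± 0.981 CPM in DMSO (edgeR adjusted p = 7.79e-11). IRAG1, a receptor partner that inhibits release when phosphorylated, rose 4.12-fold, with 3.89 ± 1.83 and 0.947 ± 0.300 CPM. The 5 that fell were ERLIN1, ERLIN2, PLCE1, PLCB3 and AHCYL1. The erlin proteins bind activated IP3 receptors and act in their degradation. ERLIN1 fell 2.19-fold, with 64.7 ± 3.50 CPM after doxorubicin and 142 ± 4.80 CPM in DMSO (edgeR adjusted p = 2.93e-10). RNF170, which acts in the same degradation, was called higher, with 15.3 ± 0.437 CPM after doxorubicin and 12.9 ± 1.09 CPM in DMSO (edgeR adjusted p = 0.0489). In the family that makes the messenger, PLCB4, PLCD1, PLCD3, PLCG1 and PLCG2 rose, while PLCB3 and PLCE1 fell. ITPKA and ITPKB, relatives of ITPKC, rose as well. The genes that rose are named here after their values were seen. PLCG2 had 64 counts after doxorubicin and 7 in DMSO and passed the filter mainly through the doxorubicin libraries, which favoured an increase. The list thus holds genes that make the messenger and genes that remove it, and its count says nothing of the amount of messenger.

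Genes for calcium storage, mitochondrial uptake and calcium decoding were mostly lower. Over all tested genes, 32.7% were higher and 32.0% lower. In the list of calcium-binding proteins of the reticulum lumen, 9 of 12 tested genes fell and 0 rose by edgeR, and the median log2 fold change was -0.36. In that list 0 rose at an unadjusted p under 0.05, and 0 rose with DESeq2. RCN2 fell 2.36-fold, with 49.6 ± 4.63 CPM after doxorubicin and 117 ± 10.2 CPM in DMSO, and NUCB2 fell 2.32-fold, with 24.1 ± 3.09 and 55.9 ± 4.49 CPM. With upper-quartile scaling, library totals only, a filter of 1 CPM in 3 libraries or without the first doxorubicin library, 1 gene of that list was called higher. Of 11 tested genes of mitochondrial calcium uptake, 7 fell and 1 rose, with a median of -0.39. MCUB, the inhibitory subunit of the uniporter, fell 3.05-fold, with 6.65 ± 0.973 CPM after doxorubicin and 20.4 ± 0.884 CPM in DMSO. VDAC2, an outer membrane channel, was the 1 that rose. In the list of calmodulin, CaMKII and calcineurin genes, 11 of 16 tested fell and 3 rose, with a median of -0.35. CALM3, 1 of the 3 genes for the calcium sensor calmodulin, fell 2.52-fold, with 213 ± 7.36 CPM after doxorubicin and 536 ± 17.7 CPM in DMSO (edgeR adjusted p = 1.63e-11). RCAN2, a calcineurin regulator, fell 1.86-fold, and NFATC3, CAMK2A and CAMK2B rose. CAMK2A and CAMK2B had only 16 and 26 counts over the DMSO libraries and passed the filter mainly through the doxorubicin libraries. The filter thus favoured increases for both.

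Genes for voltage-gated calcium channels, which open on depolarisation, were called in both directions in each class of subunit. All the increases were in genes with few counts. Of 10 tested genes, 5 rose (50%) and 4 fell (40%), against 32.7% and 32.0% of all tested genes. CACNA1C, the pore of the L-type channel that starts each heartbeat's calcium signal, fell 1.97-fold, with 8.73 ± 0.754 CPM after doxorubicin and 17.2 ± 2.40 CPM in DMSO (edgeR adjusted p = 4.18e-06). CACNA2D1, its auxiliary subunit, fell 2.09-fold, with 17.6 ± 3.01 and 36.8 ± 3.31 CPM, and the beta subunit genes CACNB3 and CACNB1 fell too. The 5 that rose, CACNA1G, CACNB2, CACNB4, CACNA2D2 and CACNA2D4, all had low levels, with means of at most 1.98 CPM after doxorubicin. They had only 4 to 27 counts over the DMSO libraries and passed the filter mainly through the doxorubicin libraries, so the filter favoured increases among them and their count supports nothing about the list. With a filter of 1 CPM in 3 libraries 3 of this list were called higher, and with no filter or with DESeq2 8 were.

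**Figure D4:**
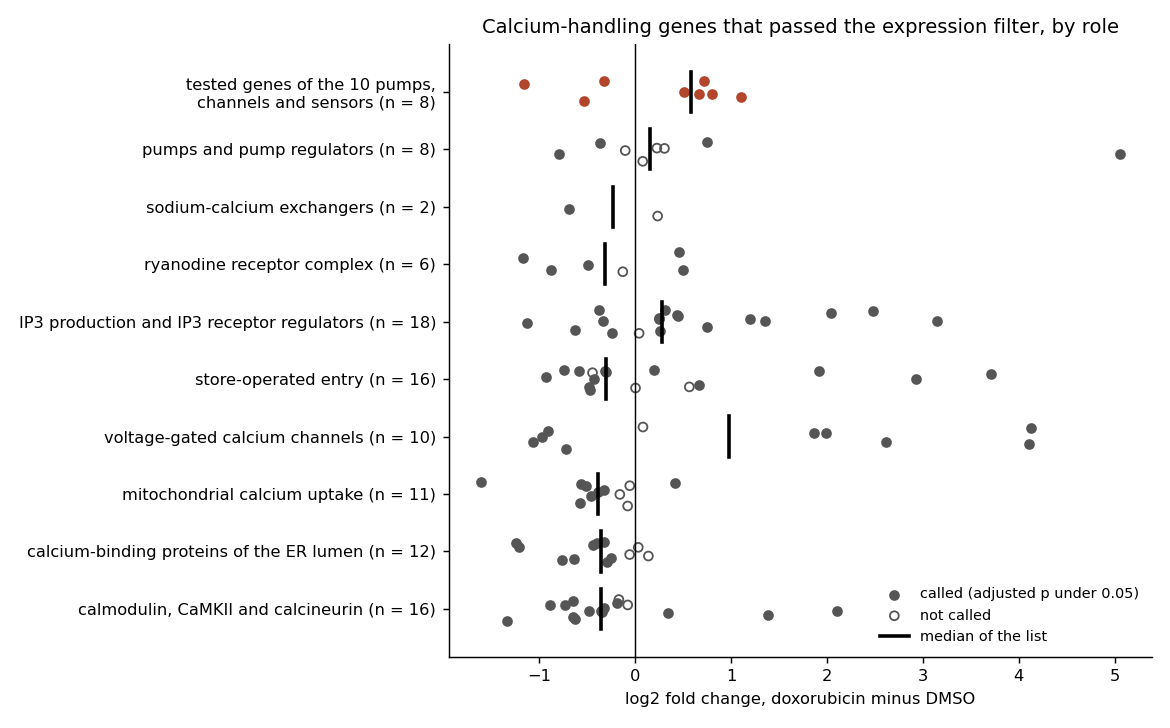
Log2 fold change of doxorubicin over DMSO of the tested genes in the group described here and in each of the 9 lists of other calcium genes, 1 point a gene, filled where called and open where not, with the median of each list as a bar. Most genes of the list for inositol trisphosphate lie above 0, and most of the reticulum lumen, mitochondrial and calmodulin lists lie below it.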

How the data were processed

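The deposited values are raw counts for each gene in 6 unstranded, poly(A)-selected libraries, 1 column a library, per the labels' protocols and the file headers. Tools listed in the submitters' processing notes are featureCounts, Subread, SAMtools and STAR, with GRCh38 (hg38) as the build; versions, settings and the treatment of reads in overlapping genes are not given in the sources used here. Mitochondrially encoded genes were not analysed here. Symbols came from a gene name table (57717 of 58299 IDs), and coordinates are those of the deposited table; the spans of 9 of the 10 genes are those of GENCODE release 29.

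The count test was that of edgeR 4.0.16 (R 4.3.3), with filterByExpr (minimum count 10, minimum total 15), TMM scaling, a robust quasi-likelihood F test (two-sided, doxorubicin over DMSO, no covariates) and Benjamini-Hochberg adjustment over 15358 genes, called at an adjusted p under 0.05. The SE is approximate: the size of the log2 fold change over the root of F. RPKM is TMM-scaled CPM divided by the summed exon length in kilobases. The procedure was checked on simulated counts in which few genes changed, evenly up and down. That check does not cover data such as these, in which most tested genes were called. Counting intervals are exact at 95% and cover counting error only. Chi-square per degree of freedom between libraries of a group was 2.82 to 9.39, so each library was counted as 1 replicate.

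The 10 genes, the lists and the rules were chosen with earlier results of these data known. The rule names all 10 genes and, from each list, the 2 called genes of largest absolute log2 fold change (mean log2 CPM 1 or more), plus all genes of a direction with 5 or fewer calls; 1 gene it would name is not reported here. No 50-base stretch is shared between any 2 of the 10 genes. Alternatives were DESeq2 1.42.0, RLE, upper-quartile and library-total scaling, other filters, the replicate number as a block, the 50 most abundant genes left out and each library left out in turn.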

Additional observations from a re-analysis of the deposited data

How the results depend on the processing

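All 8 tested genes kept their direction and their call under all 14 alternatives, 112 of 112 values. The highest adjusted p was 0.00684 (edgeR), for ITPR1 without DMSO replicate 2. Every alternative scales a library by its own counts, so none could show a change in total RNA per cell, and higher and lower are relative to the other genes. Log2 fold changes ranged from 0.48 to 0.55 for ATP2A2, -0.35 to -0.26 for ATP2B1, -0.57 to -0.49 for ATP2B4, 0.62 to 0.81 for ITPR1, 1.04 to 1.21 for ITPR2, 0.68 to 0.90 for ITPR3, -1.29 to -1.04 for SLC8A1 and 0.62 to 0.70 for STIM1. With library totals only the median of all genes moved by 0.041 on the log2 scale. With no filter or with DESeq2, 7 of the 10 genes were called higher, since RYR1 and RYR2 were then tested.

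Over all genes, 5017 were higher and 4917 lower; counts were 5320 and 4571 with library totals only, 6100 and 5190 of 34828 with no filter, and 5043 and 4499 of 22454 with DESeq2. Leaving out each library in turn gave 4703 to 5005 higher and 4519 to 4824 lower. Same-numbered libraries did not deviate together (correlations 0.0515, -0.0231 and 0.027), which cannot settle whether they were made as pairs. The replicate block gave 5003 higher and 4917 lower over all genes and 5 and 3 among the 8. Among the listed genes it gave 30 and 50, with 1 exchanger called higher instead of 0.

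Depth limits RYR1, RYR2 and the low channel subunits, whose values rest on few counts.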
